A study of Mus musculus with 22 samples.

Results

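Transcripts of the interleukin-6 (IL-6) family of cytokines and of its STAT3 axis were followed in FE1 cells, an epithelial line from the lung of the transgenic MutaMouse, which were exposed for 24 h to the multi-walled carbon nanotube Mitsui7. The set holds 10 genes of the 20018 that could be named on the array. They are the cytokines Il6, Il11, Lif and Clcf1, the receptor chains Il6st, Il6ra, Osmr and Lifr, the transcription factor Stat3 and the inhibitor Socs3. Members were every probe whose transcript accession maps to these symbols, which gave 13 probes, 3 for Lifr, 2 for Stat3 and 1 for each other gene; where a gene had several probes, the brightest is given under the gene name and the others are numbered. The 22 two-colour arrays comprised 5 controls (0 µg/ml), 6 at the low dose D1 (12.5 µg/ml), 5 at the medium dose D2 (25 µg/ml) and 6 at the high dose D3 (100 µg/ml), all of the same line. Each value is a log2 ratio of the sample, in Cy5, to one pool of mouse reference RNA, in Cy3, on the same array. Cultures were measured in bulk, so fewer cells that express a gene and less RNA per cell cannot be told apart. The exposures were made in separate experiments, fewer in number than the arrays of a dose, and the labels do not say which arrays share one. The n below counts arrays and not independent experiments, and the p-values measure the spread between arrays, part of which may be technical.

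IL-6 family cytokines signal through receptor complexes that contain the shared chain gp130, encoded by Il6st. IL-6 and IL-11 first bind a chain of their own, the one for IL-6 encoded by Il6ra, whereas LIF uses a complex of gp130 with the product of Lifr, and oncostatin M uses gp130 with the product of Osmr. Janus kinases on these chains phosphorylate STAT3, which enters the nucleus and induces, among other genes, Socs3, a feedback inhibitor of the same receptors. In the lung the family is known for its part in the acute phase response, in epithelial repair and in fibrosis.

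RefSeq promoter windows, from 250 bases before to 50 after the transcription start (build GRCm38.p6), were at hand for 9 of the 10 genes, 11 windows in all, since Lifr and Il11 have a pair each. They were searched on both strands for the STAT motif TTCNNNGAA and for the AP-1 motif TGANTCA, each of which is its own reverse complement, and no matches of the 2 motifs overlapped. The STAT motif was found in 1 of the 11 windows, that of Socs3, from 154 bases before the start, against 8.30% of all 32851 windows. The AP-1 motif was found in 4 of the 11 windows, against 7.81% of all windows. It began 249 bases before the start of Il6, 228 before that of Lif and 98 before that of the second Il11 window, and at base 4 after the start of Osmr. By the brightest probe of Lifr, Osmr, Stat3 and Socs3, all D3 values lay below the controls, whereas Lifr probe 3 and Stat3 probe 2 overlapped with them. The share of all detected probes that separate in this way was not counted. Lif was the only member with a higher call. The 250 bases before the start are printed 5′ to 3′ for Lifr, Osmr, Stat3, Socs3 and Lif, with motif matches in capitals.
Lifr (+ strand, chr15:7129322-7129571): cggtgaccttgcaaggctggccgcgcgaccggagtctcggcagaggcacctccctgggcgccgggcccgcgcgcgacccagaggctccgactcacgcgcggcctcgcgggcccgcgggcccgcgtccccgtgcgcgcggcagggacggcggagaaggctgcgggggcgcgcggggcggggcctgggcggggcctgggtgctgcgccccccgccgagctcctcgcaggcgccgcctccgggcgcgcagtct
Osmr (- strand, chr15:6874314-6874563): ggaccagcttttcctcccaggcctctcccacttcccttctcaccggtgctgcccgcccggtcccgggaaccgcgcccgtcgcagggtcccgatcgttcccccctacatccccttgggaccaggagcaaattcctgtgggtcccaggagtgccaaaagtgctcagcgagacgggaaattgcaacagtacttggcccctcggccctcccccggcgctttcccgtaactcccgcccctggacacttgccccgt
Stat3 (- strand, chr11:100939541-100939790): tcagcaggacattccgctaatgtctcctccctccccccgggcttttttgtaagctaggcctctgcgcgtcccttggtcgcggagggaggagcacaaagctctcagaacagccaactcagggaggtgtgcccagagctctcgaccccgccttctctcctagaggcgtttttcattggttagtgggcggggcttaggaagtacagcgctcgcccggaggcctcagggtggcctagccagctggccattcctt
Socs3 (- strand, chr11:117969367-117969616): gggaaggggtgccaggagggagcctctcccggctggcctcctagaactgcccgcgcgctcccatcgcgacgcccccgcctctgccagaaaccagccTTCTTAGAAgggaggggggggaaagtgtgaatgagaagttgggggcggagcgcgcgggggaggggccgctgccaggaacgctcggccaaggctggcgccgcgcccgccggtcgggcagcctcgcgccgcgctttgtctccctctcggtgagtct
Lif (+ strand, chr11:4257318-4257567): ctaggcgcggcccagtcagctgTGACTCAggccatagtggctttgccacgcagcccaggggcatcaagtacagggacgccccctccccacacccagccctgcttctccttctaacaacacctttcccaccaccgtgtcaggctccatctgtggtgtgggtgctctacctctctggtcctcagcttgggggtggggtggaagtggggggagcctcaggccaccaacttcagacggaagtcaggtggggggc
Lifr, Osmr and Stat3 have no capitals, as neither motif lies within these 250 bases. A match describes letters and is not evidence of a bound site, and the absence of a match says nothing of the factor.

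The arrays lay on 5 slides, and slide was a term in every comparison. Detected probes ranged from 23688 to 39139 per array, and all 13 member probes passed the detection filter described below in each comparison; the least steady were Lifr probe 3, detected on 18 of 22 arrays, and Lif, on 20. Over 19430 probes with slide effects removed, D1 replicate 1 had a mean correlation of -0.19 with the other D1 arrays and of 0.23 with the D2 arrays. D2 replicate 2 had a mean correlation of -0.20 with its own group and of 0.068 with the D1 arrays. Another 5 arrays also lay nearer to a neighbouring group than to their own. Results that rest on these 2 arrays are therefore given with and without them. FE1 expression of cell type markers was mixed. Of 6 epithelial markers, Krt7, Krt8 and Krt18 were detected on all 22 arrays, Epcam on 10 and Cdh1 on 0, while all 5 mesenchymal markers, Vim, Col1a1, Col1a2, Pdgfra and Acta2, were detected on all arrays. Of the alveolar type II markers, Sftpa1 was detected on 0 arrays and Abca3 on 22.

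The receptor Lifr fell at every dose, with a log2 change of -1.80 at D3. The receptor Osmr and the transcription factor Stat3 fell at D3, whereas the cytokines Il6, Il11 and Clcf1 and the receptor chains Il6ra and Il6st passed the test at no dose. A call required 3 things of a probe, namely limma's adjusted p of 0.05 or less over all 55681 probes, a 1.5-fold or larger change, and detection on 4 or more arrays of one of the groups compared. At D1, 1 of the 13 member probes was called lower and 0 higher, against 1.88% of all detected probes called lower and 1.37% called higher. At D2, 2 were called lower and 1 higher, against 2.92% and 2.68% of all probes. At D3, 5 of 13 were called lower and 0 higher, against 4.21% and 3.35% of all probes. The 5 probes stand for 3 genes. The median change of the 10 genes was -0.07 at D1, -0.17 at D2 and -0.22 at D3, beside 0.01, 0.0056 and 0.012 over all detected probes. The 3 comparisons share the same control arrays and are not independent of each other. Without D1 replicate 1 and D2 replicate 2, the member counts were 1, 3 and 5. The D2 calls were then 0 higher and 3 lower, as the call of Lif was lost and Stat3 probe 2 was called lower.

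**Figure D1:**
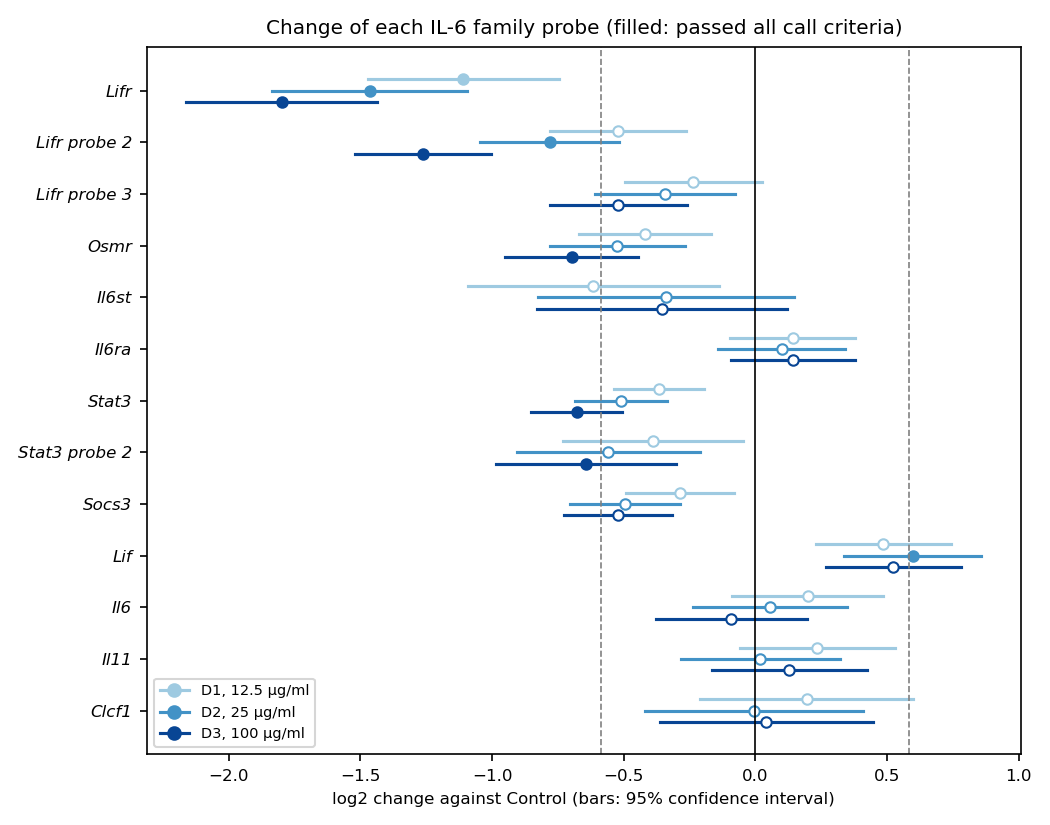
Log2 change of each member probe against Control (x axis) at D1, D2 and D3, from limma with group and slide as terms. Bars are 95% confidence intervals, dashed lines mark 1.5-fold, and filled points passed all criteria of a call. The brightest Lifr probe is filled at all 3 doses, and the probes of Stat3 and Osmr are filled at D3 only.

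Lifr encodes the chain that binds LIF. In the 4 controls with a value its log2 ratio was 0.88, 0.24, 0.11 and 0.12; the spot of control replicate 4 carried an outlier mark and was dropped. At D1 the 6 arrays ran from -1.17 over a median of -0.63 to -0.47, and at D2 the 5 arrays gave -0.95, -1.23, -1.16, -0.96 and -1.10. At D3 the values ran from -1.87 over a median of -1.39 to -1.05. Every exposed array lay below every control, at all 3 doses. How many of all detected probes separate from the controls in this way was not counted, so here and below it only describes the arrays. At D3, 8848 of 32283 detected probes had an unadjusted p under 0.05 by limma. The change was -1.11 ± 0.17 (SE) at D1, -1.46 ± 0.18 at D2 and -1.80 ± 0.17 at D3, the last a 3.48-fold decrease (limma's adjusted p = 0.000717, 2.92e-05 and 1.03e-06). With the dropped spot kept, the changes were -0.997, -1.35 and -1.69 and passed the test at every dose. Without slide 1 the D1 change was -0.70, which also passed.

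The second Lifr probe, matched to another transcript of the gene, showed the same order of doses with smaller changes. Its control values were 1.51, 1.08, 1.49, 1.49 and 1.14, and its D2 values were 0.79, 0.24, 0.55, 0.82 and 0.41. At D1 it ran from 0.42 over a median of 0.89 to 1.27, and at D3 from -0.16 over 0.15 to 0.43. Only D1 overlapped with the controls, through 1 array at 1.27. The change was -0.52 ± 0.12 (SE) at D1, under 1.5-fold and so not called (limma's adjusted p = 0.0195), and the changes of -0.78 at D2 and -1.26 at D3 passed (limma's adjusted p = 0.000534 and 8.6e-07). The third probe was dim, with a median Cy5 signal of 100.5, and was well above local background on 1 of 6 D3 arrays. It gave -0.24, -0.34 and -0.52, of which none reached 1.5-fold, although limma's adjusted p was 0.00965 at D3; without control replicate 4 the D3 change was -0.63 and passed. By the scanner log ratio this probe gave -0.91, -0.95 and -1.36, of which the last pair passed.

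Osmr encodes the receptor chain for oncostatin M. Its controls gave 0.48, 0.10, 0.38, 0.29 and -0.39 and its D2 arrays -0.17, -0.67, -0.13, -0.26 and -0.52. The D1 values ran from -0.53 over a median of -0.21 to -0.03, and the D3 values from -0.62 over -0.52 to -0.44. At D3 all 6 arrays lay below the lowest control, whereas control replicate 5 lay among the D1 and D2 arrays. Osmr fell by 0.70 at D3, 1.62-fold (95% confidence interval of the log2 change -0.95 to -0.45, limma's adjusted p = 0.000562). At D1 and D2 the changes of -0.42 and -0.52 were below the fold threshold (limma's adjusted p = 0.0632 and 0.0125). Without control replicate 5 the D2 change was -0.64 and passed, as it did by the scanner log ratio (-0.62). Under median centring in place of loess the changes at D1, D2 and D3 were -0.58, -0.45 and -0.75, none called (limma's adjusted p = 0.426, 0.806 and 0.148).

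Il6st and Il6ra, the gp130 chain and the IL-6 receptor, passed the test at no dose. Il6st controls gave 0.41, 0.87, 1.18, 0.70 and 0.59, and the D1 arrays ran from -1.19 over a median of 0.50 to 0.81. The groups overlapped, and the D1 spread was set by D1 replicates 1 and 4, at -0.12 and -1.19. The change was -0.62 at D1 (95% confidence interval -1.09 to -0.14), -0.34 at D2 and -0.35 at D3, with limma's adjusted p of 0.183, 0.579 and 0.497. Without D1 replicate 4 the D1 change was -0.33. The exposed arrays were lower than the control on each of the 4 slides that held both, at all 3 doses. Il6ra gave 0.14, 0.10 and 0.14, with intervals that all included 0.

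Stat3, the transcription factor downstream of gp130, was read by 2 probes, both of which fell at D3. The brighter one, spotted 10 times per array, gave 0.20, -0.04, 0.09, 0.31 and -0.02 in controls and -0.59, -0.53, -0.32, -0.27 and -0.31 at D2. At D1 it ran from -0.56 over a median of -0.20 to 0.05, and at D3 from -0.70 over -0.58 to -0.27. The D2 and D3 arrays all lay below the controls, and 5 of 6 D1 arrays did. The change was -0.37 ± 0.08 (SE) at D1 and -0.51 ± 0.08 at D2, both with an adjusted p of limma under the threshold (0.0134 and 0.000634) but below 1.5-fold. At D3 Stat3 fell by 0.68 ± 0.08, 1.60-fold (limma's adjusted p = 1.24e-05). Under median centring in place of loess its changes at D1, D2 and D3 were -0.52, -0.42 and -0.72, none called (limma's adjusted p = 0.444, 0.799 and 0.118). The dim second probe fell by 0.64 at D3 (limma's adjusted p = 0.0148), with changes of -0.39 and -0.56 at D1 and D2 that were not called. Its D3 arrays overlapped with the controls, 3 of 6 lying below the lowest control, although all 6 did once slide effects were removed. Its D3 call was lost without control replicate 3 (-0.53), without D3 replicate 3 (-0.57), without slide 1 (-0.63) and by the authors' series matrix (-0.57). It also passed at D2 without D1 replicate 1 and D2 replicate 2 (-0.67), without D2 replicate 2 alone (-0.68) and without control replicate 5 (-0.66). By the scanner log ratio the D3 change was -1.03.

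Socs3, the feedback inhibitor and a direct STAT3 target, did not reach the fold threshold at any dose. Controls gave -0.57, -0.64, -0.71, -0.65 and -0.44, and D2 arrays gave -1.20, -1.10, -1.22, -1.01 and -0.95. D1 ran from -1.22 over a median of -0.89 to -0.51, and D3 from -1.47 over -1.06 to -0.92. All D2 and all D3 arrays lay below the lowest control, while 2 of 6 D1 arrays did not. The change was -0.29 at D1, -0.49 at D2 and -0.52 at D3, the last with a 95% confidence interval of -0.73 to -0.32 (limma's adjusted p = 0.138, 0.00407 and 0.00127). These sizes were at most 1.44-fold; without control replicate 4 the D3 change was -0.59 and passed.

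**Figure D2:**
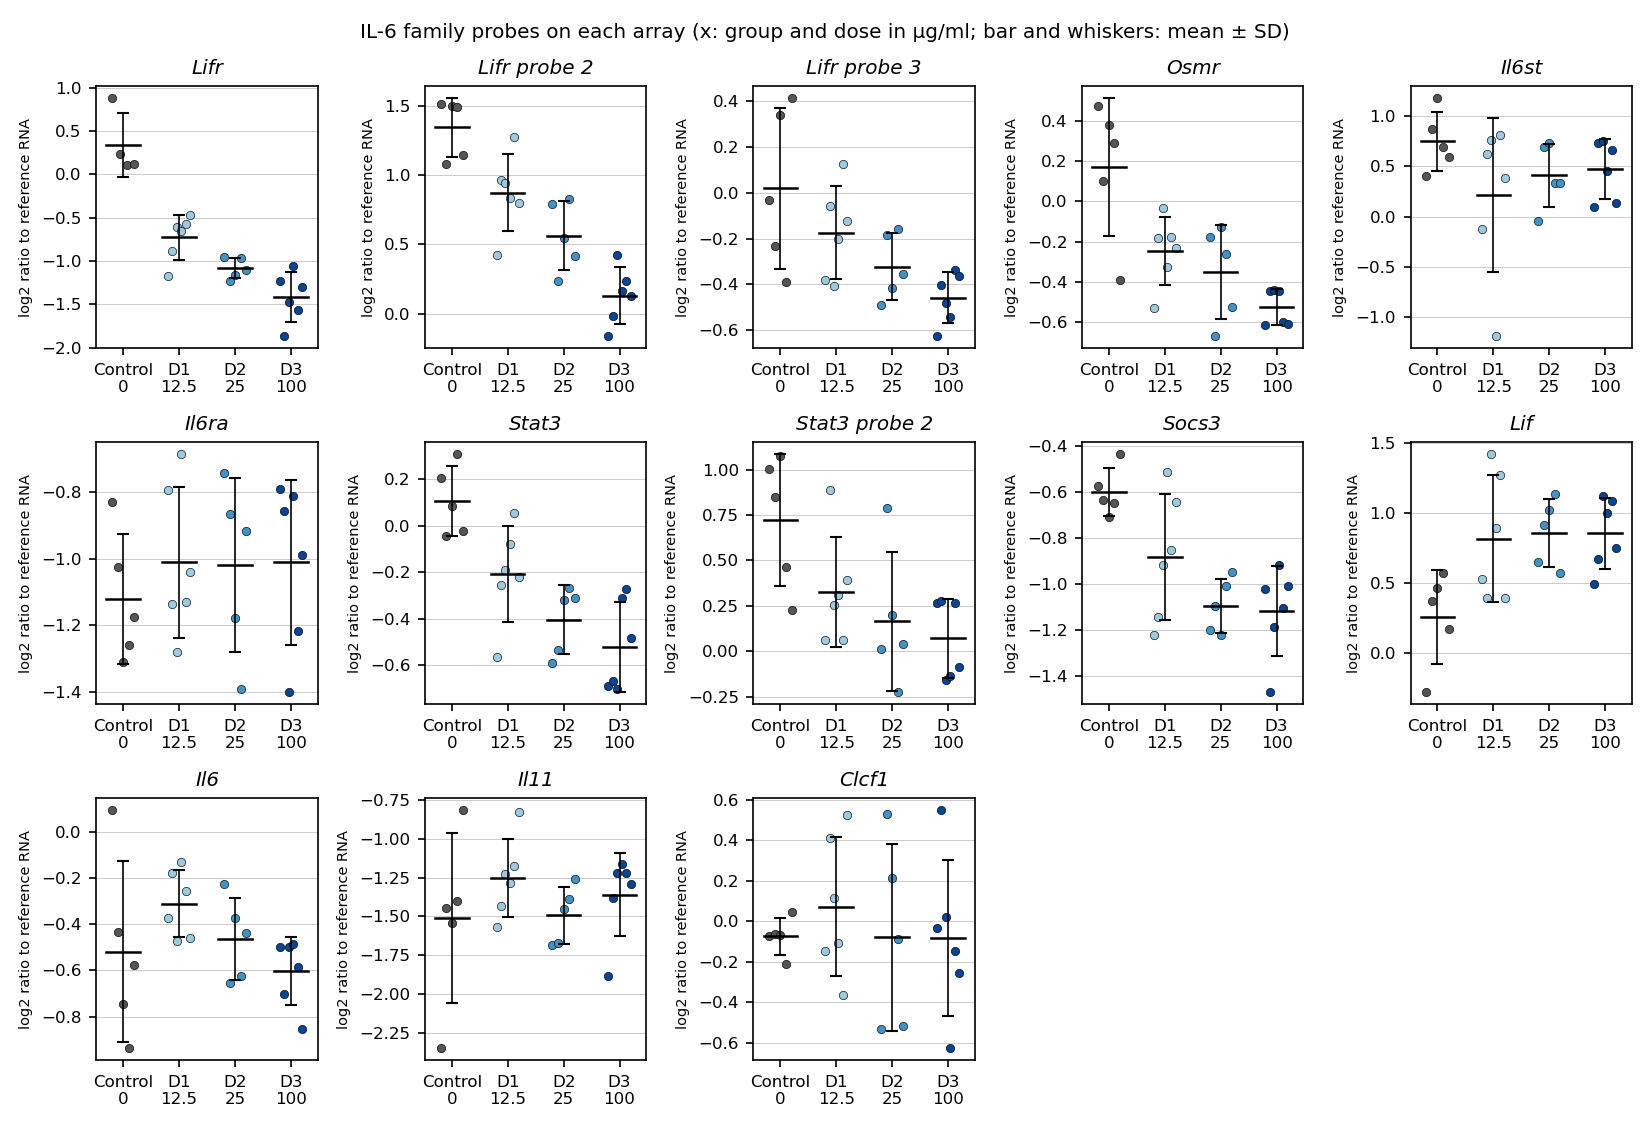
Log2 ratio of sample to reference RNA (y axis) for each of the 13 member probes on each array, by group and dose in µg/ml (x axis), with the group mean and SD; the y axis differs between panels. All D3 arrays of Lifr, Lifr probe 2, Osmr, Stat3 and Socs3 lie below all controls; the share of all detected probes that do so was not counted.

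Among the ligands, only Lif was called, and at 1 dose. Lif encodes leukaemia inhibitory factor, the cytokine that signals through Lifr. Its signal was low, detected on 3 of 5 controls and on all 17 exposed arrays, with a Cy5 signal of 79 to 135.5 in controls. The log2 ratio was -0.28, 0.37, 0.47, 0.57 and 0.17 in controls and 0.65, 0.92, 1.02, 1.14 and 0.57 at D2. At D1 it ran from 0.39 over a median of 0.71 to 1.42, and at D3 from 0.49 over 0.88 to 1.12. The exposed groups were higher on average and overlapped with the controls at every dose; with slide effects removed, every exposed array lay above every control. Since 2 controls were not above the detection level, the probe passed the detection filter only through the exposed groups, and the fold is measured against controls at or near the detection level. Lif rose by 0.60 at D2, 1.51-fold (limma's adjusted p = 0.00527), just past the fold threshold, whereas 0.49 at D1 and 0.52 at D3 did not reach it (limma's adjusted p = 0.0287 and 0.00803). Without D1 replicate 1 and D2 replicate 2 the D2 change was 0.53 and was not called. The D2 call was also lost without control replicate 1 (0.50), control replicate 3 (0.55), D2 replicate 2 (0.53) or D2 replicate 4 (0.58), and without control replicate 2 Lif was called at D3 (0.61). With replicate block in place of the slide term, Lif was also called at D1 (0.61) and at D3 (0.65), which made the D1 count 2. The size also depended on the scaling. The scanner log ratio gave 1.25, 1.36 and 1.34 at D1, D2 and D3, all called, and median centring gave 0.22, 0.34 and 0.33, none called. By the authors' series matrix the D2 change was 0.41 and was not called (limma's adjusted p = 0.154). Nor was it called with no slide term (0.60, limma's adjusted p = 0.147), under normexp (0.53) or without slide 1 (0.51, limma's adjusted p = 0.102).

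Il6, Il11 and Clcf1 passed the test at no dose. Il6 encodes IL-6 itself. Its controls gave 0.09, -0.43, -0.74, -0.94 and -0.58, a wider span than D1 (-0.47 to -0.13) or D3 (-0.85 to -0.49). The change was 0.20 at D1, 0.06 at D2 and -0.09 at D3, with 95% confidence intervals of -0.09 to 0.49, -0.24 to 0.35 and -0.38 to 0.20. All 6 D3 arrays of Il6 lay below all 6 D1 arrays, but with slide effects removed the groups overlapped and the difference of -0.29 had an adjusted p of 0.547 by limma. Il11, a relative of IL-6, gave 0.24, 0.02 and 0.13 and Clcf1, a ligand of the CNTF receptor, gave 0.20, -0.0044 and 0.04, with limma's adjusted p at least 0.512 for each. The signal of Il6 and Il11 was low, at a median Cy5 of 190.5 and 179, and the intervals bound what these arrays could show.

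Within slides, which share the scan, the called probes had 1 direction on every slide at the doses of their calls. The calls came from a fit with slide as a term, which uses these same differences, so the shared direction is not separate support. Il6st, called at no dose, was also lower on all 4 slides at every dose. The share of all detected probes with 1 direction was not counted. Slides 1 to 4 each held controls and all doses. At D3 the exposed arrays were below the control of the same slide on all 3 slides with a Lifr value (-2.11 to -1.42), and on all 4 slides for Lifr probe 2 (-1.38 to -1.01), Osmr (-0.82 to -0.22) and Stat3 (-0.79 to -0.46). Lif was above the control on all 4 slides at D2 (0.40 to 0.73). Osmr on slide 4 and Socs3 on slide 2 were above the control at D1, by 0.16 and 0.13. For Lifr the slide 1 difference was the largest, -1.59 at D1 against -0.72 and -0.58 on slides 3 and 4; slide 1 holds control replicate 1 and D1 replicate 1.

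**Figure D3:**
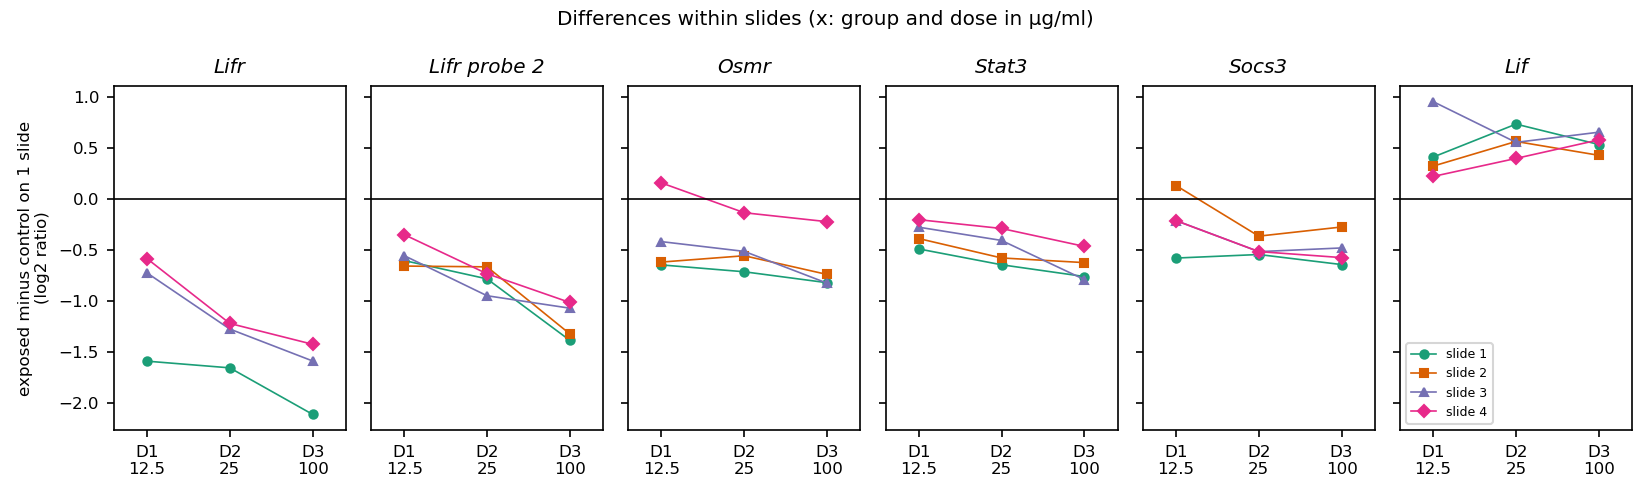
Difference between exposed and control arrays of the same slide (y axis, log2 ratio) at D1, D2 and D3 (x axis, dose in µg/ml), with 1 line per slide for 6 member probes; Lifr has no slide 2 line because its control spot was dropped. The Lifr and Stat3 lines lie below 0 at all doses and the Lif lines above 0, while 1 Osmr and 1 Socs3 line start above 0 at D1.

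Doses were also set against each other, since counts against shared controls do not show that doses differ. Between D3 and D1, 1 of 13 member probes was called lower, against 0.218% of all detected probes. It was Lifr probe 2, at -0.74 ± 0.12 (SE, limma's adjusted p = 0.00682), and all 6 D3 values lay below all 6 D1 values once slide effects were removed. The brightest Lifr probe differed by -0.69 with an adjusted p of 0.0576 by limma. Without D1 replicate 1 and D2 replicate 2 the difference was -0.78 and passed (limma's adjusted p = 0.0246), which made 2 members called; the replicate block also gave 2. Stat3 differed by -0.31 (95% confidence interval -0.47 to -0.15) with an adjusted p of 0.1 by limma. Between D2 and D1, limma called 0 of 13 members and 0 of all probes, with 2 members and 2296 probes at an unadjusted p under 0.05. Between D3 and D2 it called 0 as well, with 1 member and 1640 probes at an unadjusted p under 0.05.

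Among 47 other genes of the pathway, all on the array, 1 was called higher and 1 lower of 40 detected at D1, 0 and 6 of 40 at D2, and 1 and 8 of 39 at D3. Over all detected probes 1.37% were called higher and 1.88% lower at D1, 2.68% and 2.92% at D2, and 3.35% and 4.21% at D3. Under median centring in place of loess the counts of called genes were 2, 1 and 5. Their median change over the detected genes was -0.09, -0.09 and -0.17. Of the 7 other ligands, Ctf1, which encodes cardiotrophin 1, fell by 0.61 at D3 (limma's adjusted p = 5.76e-05). Of the 4 other receptors, Il11ra1, the IL-11 receptor, fell by 0.77 at D3 (limma's adjusted p = 0.00249). None of the 10 kinases, STATs and shedding enzymes was called at any dose; Jak2, a Janus kinase, gave -0.57 at D2 (limma's adjusted p = 0.00155) and Adam10, a protease that sheds receptors, gave -0.56 at D3 (limma's adjusted p = 0.00229), both under 1.5-fold. Of the 8 inhibitors, only Ptpn6, the phosphatase SHP-1, was called, at D2 (-0.64, limma's adjusted p = 0.0377), and Socs2, which is induced by cytokine receptors as well, gave 0.33, 0.45 and 0.50 without reaching 1.5-fold.

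Most calls were among the 18 genes listed as STAT3 targets, with 1 higher and 6 lower of 16 detected at D3. Their median change was -0.38, beside the 3.35% and 4.21% of all probes given above and their median of 0.012. This list was chosen with earlier results of these data known, so its counts describe the listed genes and are not independent support. It was not tested as a set. Cebpd, which encodes a transcription factor of the acute phase response, fell at every dose, with changes of -1.08, -1.15 and -1.33. Bcl3, an IkappaB-family regulator, fell at D2 and D3 (-0.62 and -1.04), as did Hp, the acute phase protein haptoglobin (-0.95 and -1.14). Il4ra, the interleukin-4 receptor, fell at the same doses (-0.88 and -0.97), and so did Ccnd1, cyclin D1 (-0.69 and -0.62). Hif1a, the oxygen-regulated transcription factor, fell at D3 (-0.69). Cebpb, a relative of Cebpd, went the other way and rose by 0.66 at D1 and 0.69 at D3. Targets such as Timp1, Lcn2, Pim1, Bcl2l1 and Birc5 were not called, and Mcl1 gave 0.17, 0.36 and 0.42. The counts of called pathway genes without D1 replicate 1 and D2 replicate 2 were 2, 5 and 9. Leaving out control replicate 1 or control replicate 3 moved the D1 count from 2 to 4 or 1, leaving out D2 replicate 4 moved the D2 count from 6 to 3, and the replicate block gave 4 at D1.

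**Figure D4:**
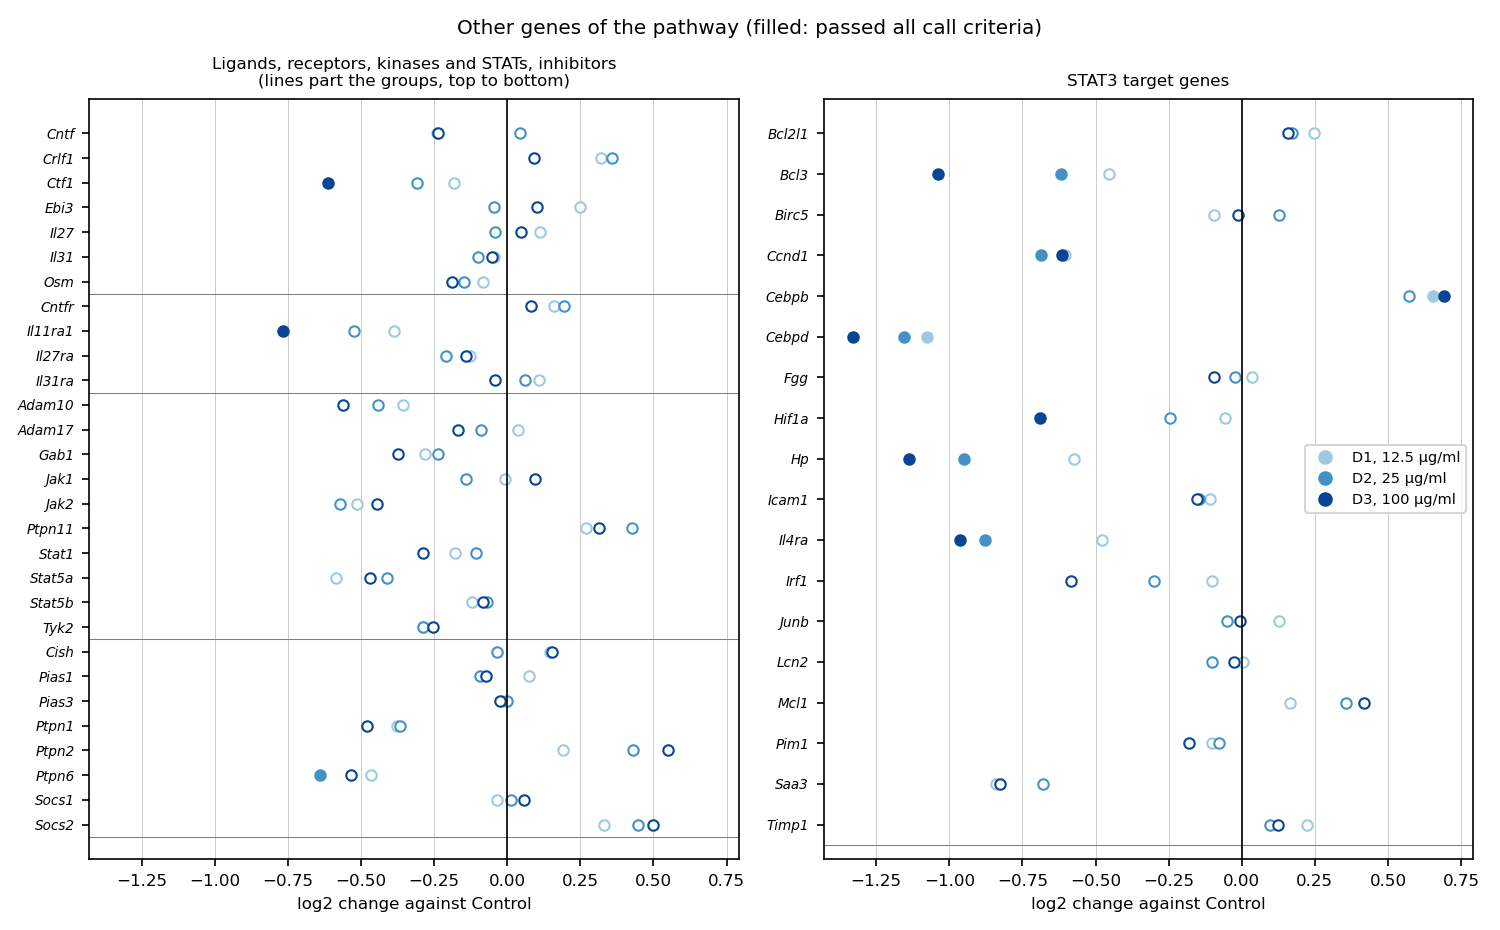
Log2 change against Control (x axis) at D1, D2 and D3 for 47 other genes of the pathway, the brightest probe of each; filled points passed all criteria of a call. The STAT3 target panel holds most of the filled points, with Cebpd filled at all 3 doses below 0 and Cebpb filled at D1 and D3 above 0.

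Some markers of mesenchymal cells were also lower after exposure. Of 5 such markers, Col1a1, Col1a2 and Pdgfra were called lower at all 3 doses, with D3 changes of -1.34, -1.52 and -1.53, whereas Vim, with 0.14 at D3, and Acta2, with -0.70, were not called. The mean log2 ratio of the 5 markers ran from 0.33 to 0.74 in controls, from -0.65 to 0.23 at D1, from -0.68 to -0.28 at D2 and from -0.75 to -0.32 at D3. Of 5 alveolar type I markers, only Hopx was called, lower at all doses, with -2.08 at D3. Aqp5, Ager and Cav1 gave -0.37, -0.50 and -0.31 at D3, whereas Pdpn, the brightest, gave 0.22, 0.48 and 0.31 at D1, D2 and D3. The mean of the 5 ran from 0.0089 to 0.24 in controls and from -0.54 to -0.35 at D3, a fall to which Hopx contributed most. Of the 6 epithelial markers, only Krt7 was called, lower at D2 and D3, and the mean of the 6 had a median of -3.17 in controls and -3.13 at D3. The part of these in the changes of Lifr, Osmr and Stat3 was not tested. No leukocyte or endothelial marker was called, and the mean log2 ratio of 5 leukocyte markers ran from -1.74 to -0.91 in controls and from -1.75 to -1.14 at D3.

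Over the 22 arrays, with slide effects removed and among 16027 probes of named genes, the genes whose log2 ratio followed Socs3 most closely included Il4ra (Pearson's r = 0.95, Spearman's rho = 0.91), Mxd4 (0.94, 0.92), Aplp2 (0.94, 0.94) and Tmem216 (0.93, 0.88). Over the 17 exposed arrays alone r was 0.85 to 0.93 for these genes. The genes closest to Il6 were Gemin8 (r = 0.83, rho = 0.81), Odf2 (0.78, 0.76), Lbh (0.75, 0.72), Krt6b (0.74, 0.63) and Scube2 (0.74, 0.67). Over the exposed arrays alone r was 0.89, 0.86, 0.70, 0.55 and 0.72 in the same order. For Krt6b, r was 0.58 without the 2 arrays farthest from the median of Il6. These values describe arrays that share slides, doses and reference RNA, and they were picked as the highest among many.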

How the data were processed

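RNA of FE1 cells was hybridised with reference RNA to 22 two-colour Agilent arrays without dye swap. The deposited files hold the median signal intensity of each spot, which per the file headers came from Feature Extraction 10.7.3.1, and marks for outliers and background; the study's methods name another software version. The deposited scanner log10 ratio and the authors' series matrix of log2 ratios, whose normalization is not stated, were used as alternatives only. In the matrix, 21 of 22 columns were most like their own array (correlation median 0.985, lowest 0.840; column medians 0.0043 to 0.027).

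From the intensities, log2(Cy5/Cy3) of these signals, with no background taken off, was adjusted by loess in each array over 59305 non-control spots. Outlier spots (0.401% to 6.22% per array) were then set missing, and spots of a probe were combined by their median. Detection required a Cy5 signal above the 5% trimmed mean plus 3 SD of the negative controls. Groups were fitted with limma 3.58.1 (R 4.3.3) on the 22 arrays together, with terms for group and slide, in place of the study's MAANOVA, with Benjamini-Hochberg adjustment over 55681 probes. Probes were named by accession through RefSeq's GRCm38.p6 table (26413 matched); promoters come from the same build. The number of arrays limits the precision. Same-numbered arrays deviated together (all 31 pairs over 0.1, range 0.17 to 0.86), but 27 pairs shared a slide, and with slide removed 14 exceeded 0.1. That count cannot decide whether the numbers pair arrays, since removing slide also removes what same-numbered arrays on it share. D1 and D3 replicate 5, the only arrays on slide 5, were thereby set to -1. On slide 1, which holds numbers 1 and 2, the pairs ran from -0.035 to 0.65 after removal. No arrays were identical. The named members and lists were chosen with earlier results of these data known. One further gene is not reported here. Alternatives covered normalization, background (normexp with offset 50, on median signals), thresholds, blocks and single arrays.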

Additional observations from a re-analysis of the deposited data

Results flagged for a closer look

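Il11 on D3 replicate 1 had a log2 ratio of -1.89, apart from the other 5 D3 arrays, which lay between -1.38 and -1.16. With slide effects removed it was at -1.61 and no longer apart, as D3 replicate 6 was at -1.64. Lifr on control replicate 1 was at 0.88, above the other 3 controls with a value, which lay between 0.11 and 0.24; without that array Lifr was still called at all 3 doses. These were 2 of 52 groups of arrays examined for a lone value, a search in which chance gives about 1 in 20. Lifr probe 2 differed between D3 and D1 by -0.74, a difference between doses that passed the test itself.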

How the results depend on the processing

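Of the changes of member probes recomputed under 33 alternatives each, 1322 stayed on the same side of the threshold in the same direction, 17 lost their call, 20 gained one and 27 changed sign; all 27 belong to Il6, Il11, Clcf1 or Il6ra, which were called at no dose. The replicate block added the calls of Lif at D1 and D3 and of Lifr between D3 and D1 and changed no other member call. Lifr was called at every dose under all 33. The call of Osmr and of Stat3 at D3 was lost only under median centring (-0.75 and -0.72), and Lif at D2 was called under 23 of 33. The member count at D3 was 3 under median centring, 8 with no fold threshold and 2 at 2-fold. At D2 it was 5 by the scanner log ratio, 6 with no fold threshold and 1 at 2-fold. At D1 it was 2 by the scanner log ratio, 2 under the replicate block and 4 with no fold threshold. Between D3 and D1 it was 0 under median centring and at 2-fold, and 2 under the replicate block, without slide 1 and without D1 replicate 1 and D2 replicate 2. Leaving out 1 array at a time gave 1 at D1, 2 to 5 at D2 (5 without control replicate 5), 4 to 7 at D3 (7 without control replicate 4) and 1 to 2 between D3 and D1 (2 without control replicate 1, control replicate 5 or D1 replicate 1). For all probes, median centring gave 1314 calls at D3 in place of 2442.

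The changes of sign were near 0. Clcf1 at D3 was -0.0075 without slide, -0.044 under median centring, -0.035 under the replicate block and -0.12 without slide 1. Clcf1 at D2 was 0.039 by the scanner log ratio and 0.020 by the series matrix. Il6ra at D1 was -0.00080 under median centring and -0.0019 by the series matrix, and at D2 -0.052 by the series matrix. Il11 at D2 was -0.011 under normexp, -0.12 without slide 1 and -0.0043 without D1 replicate 1 and D2 replicate 2. Il6 at D3 was 0.0078 by the scanner log ratio and 0.13 without slide 1. With single arrays left out, the ranges were -0.061 to 0.19 for Il6 at D2, -0.21 to 0.048 for Il6 at D3, -0.14 to 0.13 for Il11 at D2, -0.029 to 0.24 for Il11 at D3, -0.15 to 0.15 for Clcf1 at D2 and -0.078 to 0.15 for Clcf1 at D3. The causes were not tested. Dim probes (Lif, Lifr probe 3, Stat3 probe 2) limit what signal over background can show.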
